A study of Drosophila melanogaster with 17 samples.

Results

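The cytochrome P450 genes of the fly were followed across brains that lacked a receptor or a drug pump of the blood-brain barrier and across 3 sets of control brains. Members were all genes of the deposited expression matrix whose single platform symbol had the form Cyp, number, lower-case letters, number. This gave 58 of the 8938 genes measured, and the rule used no expression value. The cyclophilin genes Cyp1 and Cyp40 share the prefix and were left out. The members came from 14 CYP families: 18 genes of CYP6, 14 of CYP4, 5 each of CYP12 and CYP9, 4 each of CYP28 and CYP313, and 1 each of CYP18, CYP49, CYP301, CYP303, CYP305, CYP310, CYP316 and CYP317. Grouped into clans, the larger branches of the family tree, 29 members belonged to the CYP3 clan, 19 to the CYP4 clan, 7 to the mitochondrial clan and 3 to the CYP2 clan. By chromosome arm, 27 members lay on 2R, 10 on 3R, 10 on X, 8 on 2L and 3 on 3L. A further 23 P450 genes with symbols of this form in the current RefSeq annotation were not analysed here.

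Cytochrome P450s are haem enzymes that use molecular oxygen and electrons from NADPH to add an oxygen atom to their substrate. Microsomal P450s receive the electrons from Cpr, the P450 reductase, with cytochrome b5 as a helper, while mitochondrial P450s receive them through ferredoxins. Insect P450s fall into enzymes of hormone and lipid metabolism, such as the steps that make and clear ecdysone, and enzymes that oxidise plant toxins, drugs and insecticides, most of them in the CYP3 and CYP4 clans and in the CYP12 family. In animals, chemical protection of the brain combines a sealed cell layer, efflux pumps and such enzymes.

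Each of the 17 arrays held RNA of 4 pooled adult brains of both sexes. C17 (3 arrays) was a null mutant of moody, whose product is a G protein-coupled receptor needed in surface glia to seal the fly's blood-brain barrier. PMdr65 (3 arrays) was a null mutant of Mdr65, whose product is an ABC-type drug pump in that cell layer. UAS_control (3 arrays) carried a UAS-Mdr65-RNAi construct, with no driver named in the labels, and WT_old (5 arrays) and WT_new (3 arrays) were Canton S wild type flies. All groups were reared on cornmeal molasses food, in the cool or at room temperature per the labels. The series text puts both mutants in a background other than Canton S and UAS_control in a similar one. It also puts WT_new on another processing day than the mutants, so genotype and day cannot be told apart in contrasts with WT_new. The same text names WT_old and UAS_control as controls for processing day and background. The day of these groups is not itself given in the sources used here, which left no fit with day as a term. Each null allele was represented by 1 line, and whether replicate arrays stem from separate cultures is not stated, so p-values speak only of array-to-array spread, which may be technical. In RNA from whole brains, fewer cells of a type and less RNA per cell cannot be told apart.

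The labels' genotypes were checked on the deleted genes. Signals are on the log2 scale throughout, as RMA gives them, so a difference of 1 is a doubling or a halving of the linear signal. The moody signal averaged 2.17 in C17 brains, and its lowest value on any array of the other groups was 9.65. The Mdr65 signal averaged 4.69 in PMdr65 brains, against at least 9.35 on every other array. Summed linear signals of 5 neuron markers ran from 20653 to 24350 over the arrays and those of 8 glia markers, moody and Mdr65 among them, from 16482 to 21844, so RNA of both cell classes was present on every array. Markers of tissues around the brain varied more. The fat body sum (7 markers) was 6435 to 9854 in C17, 6598 to 15097 in PMdr65, 10232 to 33964 in UAS_control, 2059 to 3135 in WT_old and 11837 to 28661 in WT_new. The muscle sum (11 markers) was 648 to 1026 on the mutant arrays, 1872 to 10471 in UAS_control, 690 to 923 in WT_old and 1265 to 1780 in WT_new, and the eye sum (7 markers) was 8464 to 13656 in UAS_control and 15150 on WT_new array 3, where it was 3970 to 5224 on every array of C17, PMdr65 and WT_old and on WT_new arrays 1 and 2. These lower eye sums were mostly rdgA, which averaged 12.11 in each mutant and 11.63 in UAS_control. The other eye markers ran the other way, as with inaC at 5.19 in C17 and 9.51 in UAS_control, so the sum understates their difference. UAS_control array 2 and WT_new array 3 stood apart, and some of the members they moved are also given without them.

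P450 signals spanned most of the range of the arrays. Over all 17 arrays, 23 members had a mean below 6, where the lowest single signal of the matrix was 1.92 and the median gene average was 7.91, and 34 members lay in the dimmest 40% of probe sets. Folds of such dim members, and of brighter members that were dim in one group, are approximate. Signals of different probe sets are not comparable, so each gene was compared only with itself across groups.

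**Figure D1:**
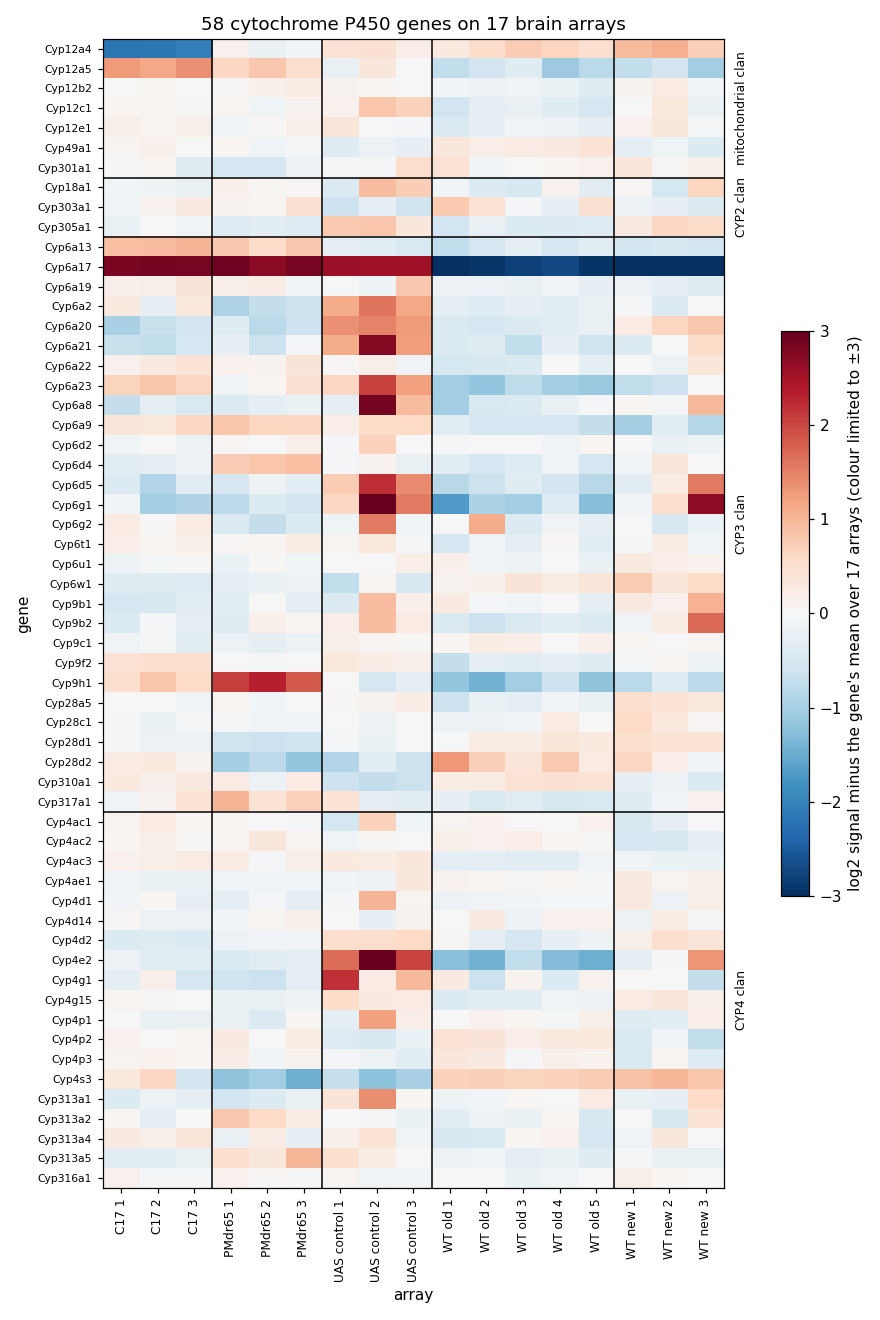
Log2 signal of each of the 58 cytochrome P450 genes on each array, minus that gene's mean over all 17 arrays. Genes are ordered by clan and then CYP family, and columns are arrays sorted by group. The colour scale is capped, so the largest deviations look smaller than they are. Cyp6a17 differs by more than 5 between the Canton S groups and the other 3 groups, Cyp12a4 is low in C17 and Cyp9h1 is high in PMdr65.

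A member was counted as changed in a mutant when it passed limma's test at an adjusted p of 0.05 in the same direction against UAS_control, WT_old and WT_new. In C17 brains 3 of 58 members were higher (5.17%, against a background of 4.37% of all 8938 genes) and 2 were lower (3.45%, background 2.27%). In PMdr65 brains 7 members were higher (12.1%, background 5.87%) and 5 were lower (8.62%, background 3.18%). The remaining 46 members did not pass in one direction against all 3 control groups in either mutant. The median change of the members was small against each control group: -0.12, 0.07 and -0.06 in C17 against UAS_control, WT_old and WT_new, and -0.17, 0.09 and -0.09 in PMdr65, where the median over all genes was at most 0.02 in size. Against single control groups more members passed. In C17, 9 members were higher and 16 lower than in UAS_control (15.5% and 27.6%, background 23.2% and 20.4%), 16 higher and 5 lower than in WT_old (27.6% and 8.62%, background 11.6% and 8.03%), and 13 higher and 15 lower than in WT_new (22.4% and 25.9%, background 24.1% and 17.9%). In PMdr65, 11 members were higher and 19 lower than in UAS_control (19.0% and 32.8%, background 21.1% and 20.0%), 17 higher and 9 lower than in WT_old (29.3% and 15.5%, background 15.3% and 13.2%), and 14 higher and 16 lower than in WT_new (24.1% and 27.6%, background 23.6% and 19.6%). Some markers of brain cells passed by the same rule, with the same backgrounds, and no shift of a cell class is read from these short lists. Of 8 glia markers, ltl was higher in C17 by 0.67 to 1.16, with the deleted moody lower, and in PMdr65 moody was higher by 1.37 to 1.62, ltl by 0.81 to 1.30 and wrapper by 0.41 to 0.72, with the deleted Mdr65 lower. The glia markers repo, Gs2, alrm and Indy passed in neither mutant. Of 5 neuron markers, Syn was higher by 0.27 to 0.70 in each mutant, while elav, nSyb, brp and para passed in neither. The part of glia or neurons in the P450 differences was not tested. The 11 control arrays are shared by the comparisons of both mutants, so each gene is given below with the values of each comparison and no overlap is drawn from them.

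Among the 5 measured genes of the CYP12 family, mitochondrial enzymes, Cyp12a4 fell and its chromosomal neighbour Cyp12a5 rose. Cyp12a4 is known for conferring resistance to the insect growth regulator lufenuron when it is overexpressed. Its signal was 6.44, 6.47 and 6.57 in C17 brains and 8.77, 8.43 and 8.55 in PMdr65 brains. It was 9.07, 9.08 and 8.82 in UAS_control brains, 8.93, 9.17, 9.38, 9.27 and 9.13 in WT_old brains, and 9.59, 9.69 and 9.34 in WT_new brains. All arrays of both mutants lay below all 11 control arrays, and the C17 arrays lay far below the PMdr65 arrays. In C17 the gene was lower by 2.50 to 3.05 against the 3 control groups, which is 5.64- to 8.28-fold (limma, highest adjusted p = 1.91e-09). In PMdr65 it was lower by 0.40 to 0.96 (highest adjusted p = 0.0165). That second call depended on single arrays: without PMdr65 array 2, UAS_control array 1 or UAS_control array 2 the smallest difference was 0.33 to 0.37 in size and the adjusted p 0.0532 to 0.0764. The control groups were not level, and Cyp12a4 averaged 8.99 ± 0.15 in UAS_control and 9.54 ± 0.18 in WT_new (SD, n = 3 each; adjusted p = 0.00702).

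Cyp12a5 lies next to Cyp12a4 on chromosome arm 3R in the RefSeq order of protein-coding genes and showed the opposite pattern. Its signal was 7.14, 7.03 and 7.24 in C17 brains and 6.50, 6.68 and 6.39 in PMdr65 brains. It was 5.65, 6.22 and 5.87 in UAS_control brains, 5.14, 5.29, 5.51, 4.78 and 5.05 in WT_old brains, and 5.14, 5.33 and 4.82 in WT_new brains. Every mutant array lay above every control array, with UAS_control between the mutants and the wild types. The gene was higher by 1.23 to 2.04 in C17 (2.34- to 4.12-fold, highest adjusted p = 8.43e-05) and by 0.61 to 1.43 in PMdr65 (1.53- to 2.69-fold, highest adjusted p = 0.0129), where leaving out PMdr65 array 2 or UAS_control array 1 reduced the smallest difference to 0.54 or 0.48 and ended the call (adjusted p of 0.054 and 0.0599). UAS_control itself exceeded WT_old by 0.76 and WT_new by 0.82 (adjusted p = 0.000991 and 0.00624). The other CYP12 members, Cyp12b2, Cyp12c1 and Cyp12e1, did not pass against all 3 control groups in either mutant. No protein or promoter sequence of this pair was used here.

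Cyp6a13, a member of the CYP6 family of the CYP3 clan, rose in both mutants by similar amounts. Its signal was 9.71, 9.74 and 9.83 in C17 brains and 9.61, 9.36 and 9.61 in PMdr65 brains. It was 8.57, 8.49 and 8.36 in UAS_control brains, 8.07, 8.31, 8.51, 8.31 and 8.48 in WT_old brains, and 8.25, 8.33 and 8.23 in WT_new brains. The 3 control groups lay close together, and no mutant array overlapped them. The gene was higher by 1.29 to 1.49 in C17 (2.44- to 2.81-fold, highest adjusted p = 4.31e-07) and by 1.05 to 1.26 in PMdr65 (2.08- to 2.39-fold, highest adjusted p = 5.07e-06), and it passed in both mutants under every alternative setting tried. The signal averaged 9.76 ± 0.06 in C17 and 9.53 ± 0.14 in PMdr65 (SD, n = 3 each), and this contrast did not pass the threshold.

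Cyp9h1 of the CYP9 family had the largest increase among the members that passed in PMdr65 and a smaller one in C17. Its signal was 8.29, 8.55 and 8.06 in PMdr65 brains and 6.70, 7.05 and 6.80 in C17 brains. It was 6.23, 5.71 and 5.94 in UAS_control brains, 5.06, 4.80, 5.18, 5.59 and 5.0 in WT_old brains, and 5.40, 5.83 and 5.43 in WT_new brains. The groups were ordered PMdr65, C17, controls, with no overlap between the 3. The gene was higher by 2.34 to 3.18 in PMdr65 (5.07- to 9.04-fold, highest adjusted p = 1.05e-06) and by 0.89 to 1.72 in C17 (1.85- to 3.30-fold, highest adjusted p = 0.00189). The lower end of each range is against UAS_control, which exceeded WT_old by 0.83 and passed the test there. Cyp9c1 of the same family fell slightly. It had 7.45, 7.50 and 7.25 in C17 brains and 7.38, 7.30 and 7.38 in PMdr65 brains, against 7.54 to 7.78 (median 7.64) on the 11 control arrays. It was lower by 0.27 to 0.33 in PMdr65 (highest adjusted p = 0.0131) and by 0.22 to 0.28 in C17 (highest adjusted p = 0.0351). The C17 call did not hold without C17 array 1 or 3, UAS_control array 1, or WT_new array 1 or 3 (smallest difference 0.15 to 0.24 in size, adjusted p 0.0506 to 0.176).

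Other members passed against all 3 control groups in PMdr65. Cyp6d4 had 6.30, 6.39 and 6.45 in PMdr65 brains, against 5.21, 5.29 and 5.41 in C17 brains and 5.04 to 5.92 (median 5.45) on the 11 control arrays. The PMdr65 arrays stood clear of all others and the gene was higher by 0.73 to 1.19 (1.66- to 2.28-fold, highest adjusted p = 0.000298). Cyp317a1 had 5.07, 4.45 and 4.74 in PMdr65 brains, against 3.95, 4.15 and 4.45 in C17 brains and 3.57 to 4.45 (median 3.72) on control arrays. Its lowest PMdr65 array and UAS_control array 1 had the same value at this precision, and the gene was higher by 0.78 to 1.11 (highest adjusted p = 0.00593).

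Cyp313a2 and Cyp313a5, neighbours on 3R, passed as higher in PMdr65 at dim signals, with PMdr65 arrays overlapping control arrays. Cyp313a2 had 4.86, 4.64 and 4.28 in PMdr65 brains, against 4.10, 3.75 and 4.07 in C17 brains and 3.56 to 4.47 (median 3.89) on control arrays. Cyp313a5 had 3.68, 3.52 and 4.18 in PMdr65 brains, against 2.87, 2.83 and 2.95 in C17 brains and 2.82 to 3.65 (median 3.0) on control arrays. The differences were 0.57 to 0.77 for Cyp313a2 (highest adjusted p = 0.033) and 0.38 to 0.85 for Cyp313a5 (highest adjusted p = 0.0459), and neither call was stable. The Cyp313a2 call did not hold without PMdr65 array 1 or 2, UAS_control array 3, or WT_new array 1 or 2 (0.33 to 0.58, adjusted p 0.0661 to 0.165), and the Cyp313a5 call did not hold when any of 14 of the 17 arrays was left out (0.19 to 0.44, adjusted p 0.0504 to 0.244), the exceptions being PMdr65 array 2, UAS_control array 1 and WT_new array 1.

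The members that fell in PMdr65, besides Cyp12a4 and Cyp9c1, were Cyp28d1, Cyp6a2 and Cyp301a1. Cyp28d1 has been linked to tolerance of dietary nicotine in flies. It had 11.05, 10.99 and 11.04 in PMdr65 brains, against 11.58, 11.47 and 11.49 in C17 brains and 11.44 to 12.11 (median 11.87) on the 11 control arrays. The PMdr65 arrays were the lowest of the series, and the gene was lower by 0.54 to 1.04 (1.46- to 2.05-fold, highest adjusted p = 0.000168). C17 was lower than WT_old by 0.35 and than WT_new by 0.55 and did not pass against UAS_control (-0.06, adjusted p = 0.591).

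Cyp6a2, an enzyme able to metabolise DDT, had 6.89, 7.11 and 7.19 in PMdr65 brains, against 8.12, 7.58 and 8.14 in C17 brains. On control arrays it had 8.93, 9.42 and 8.99 in UAS_control, 7.52, 7.44, 7.57, 7.51 and 7.59 in WT_old, and 7.76, 7.40 and 7.80 in WT_new. UAS_control stood above all other groups, so the PMdr65 difference was 2.05 against UAS_control and 0.46 against WT_old in size (highest adjusted p = 0.0225), and without PMdr65 array 1 or 2 the smaller of these was 0.37 or 0.49 and did not pass (adjusted p = 0.113 and 0.0529). Cyp301a1, a mitochondrial enzyme needed for cuticle formation, had 5.25, 5.25 and 5.63 in PMdr65 brains, against 5.71, 5.86 and 5.41 in C17 brains and 5.69 to 6.29 (median 5.84) on control arrays. It was lower in PMdr65 by 0.51 to 0.58 (highest adjusted p = 0.0233), a call that did not hold without PMdr65 array 1 or 2, UAS_control array 3 or WT_new array 1 (0.35 to 0.50 in size, adjusted p 0.0604 to 0.113).

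Without PMdr65 array 2, 2 members rather than 5 were lower in PMdr65, and without PMdr65 array 1 there were 3. For C17, 1 member rather than 2 was lower without C17 array 1 or 3 or UAS_control array 1, and 5 rather than 3 were higher without WT_old array 1, which added Cyp6a17 and Cyp9f2. Leaving out UAS_control array 2 and WT_new array 3 together gave 3 higher and 2 lower members in C17, with Cyp6a20 in place of Cyp9c1, and 6 higher and 5 lower members in PMdr65, with Cyp313a5 lost.

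**Figure D2:**
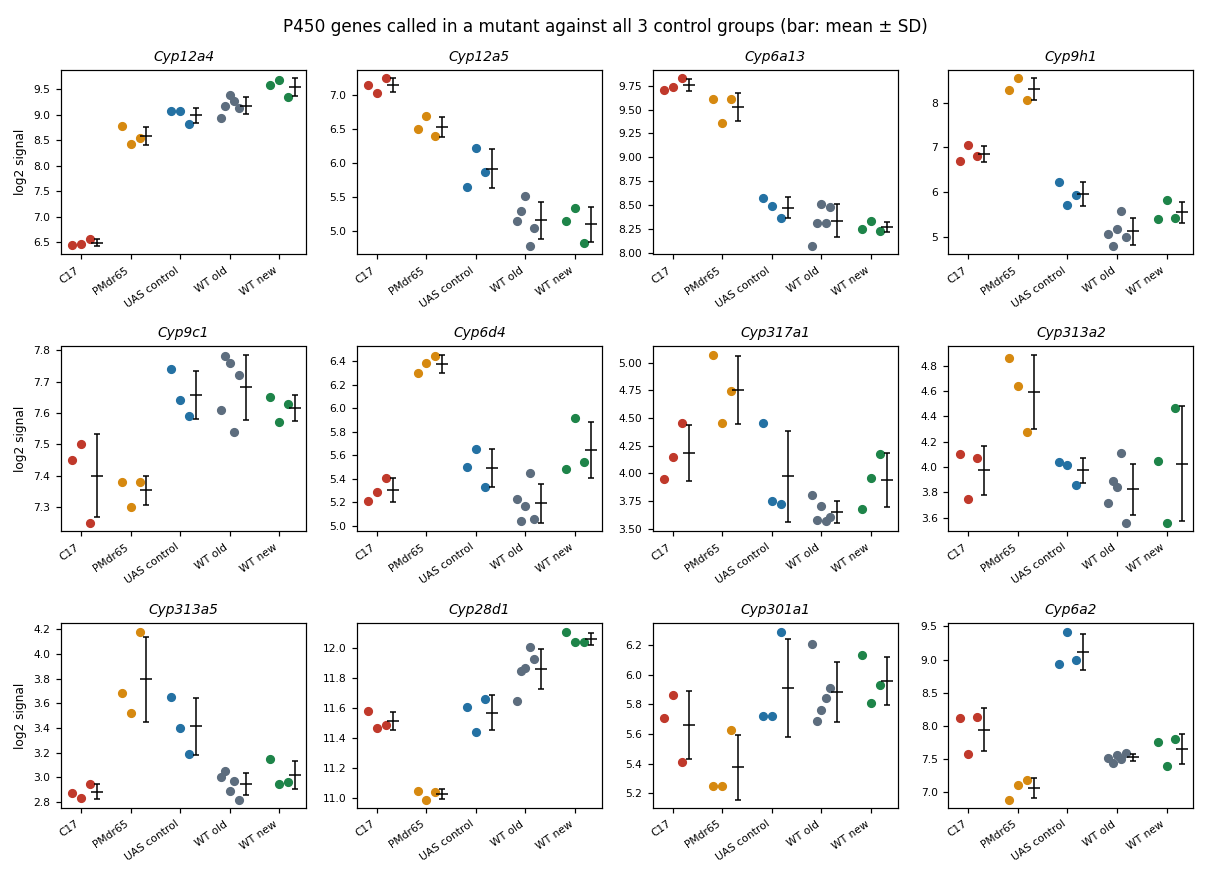
Log2 signal of the 12 P450 genes that passed against all 3 control groups in C17 or PMdr65, by group. Points are arrays and bars are the mean ± SD (n = 3, 3, 3, 5 and 3 from left to right). Vertical axes differ between panels and do not start at 0. Cyp12a4 is between 6.44 and 6.57 in C17 and at least 8.43 elsewhere, and Cyp9h1 is between 8.06 and 8.55 in PMdr65 and at most 7.05 elsewhere.

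As a count without a model, all 3 C17 arrays lay above all 11 control arrays for 5 members (8.62%, background 7.13%) and below them for 3 (5.17%, background 3.82%). For PMdr65 the counts were 7 above (12.1%, background 7.51%) and 5 below (8.62%, background 4.77%). In an exact two-sided permutation test of each mean against the 11 control arrays, 7 members in C17 (12.1%, background 6.61%) and 11 in PMdr65 (19.0%, background 8.06%) reached p = 0.0027, the smallest value that 3 against 11 arrays allow (0.0174 after Benjamini-Hochberg adjustment over 116 tests). This test pools control groups that differ from each other, and Cyp6a17 reached that p in both mutants without passing against UAS_control in either.

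The direct contrast of both mutants, which the series text puts on the same day, shows where these lines differed, and mutation and line background cannot be told apart in it. In C17, 6 members were higher than in PMdr65 (10.3%, background 3.71%) and 4 were lower (6.9%, background 3.23%). The largest difference was Cyp12a4, which was lower in C17 by 2.09 ± 0.12 (SE; 4.26-fold, adjusted p = 1.47e-08). Cyp9h1 was lower by 1.45 ± 0.19 (adjusted p = 0.000158), Cyp6d4 by 1.08 ± 0.12 (4.32e-05) and Cyp313a5 by 0.91 ± 0.14 (0.000705). On the other side, Cyp4s3 was higher in C17 by 1.37 ± 0.21 (2.58-fold, adjusted p = 0.000732) and Cyp28d2 by 1.20 ± 0.24 (0.00443). Cyp6a2 was higher by 0.88 ± 0.16 (0.00205), Cyp9f2 by 0.50 ± 0.10 (0.0054) and Cyp28d1 by 0.48 ± 0.08 (0.00155). Cyp12a5 was higher by 0.61 ± 0.18 with an adjusted p of 0.0493, which did not hold when any of 11 arrays was left out (0.55 to 0.69, adjusted p 0.0596 to 0.176), all arrays of both mutants among them. The neighbours Cyp28d1 and Cyp28d2 thus moved the same way in this contrast. For both Cyp4s3 and Cyp28d2, however, neither mutant passed in one direction against all 3 control groups.

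The control groups differed from each other in many members, and the differences were of the same order as those of the mutants or larger. The largest was Cyp6a17, an enzyme known for setting the temperature preference of adult flies. Its signal was 9.53, 9.58 and 9.56 in C17 brains, 9.64, 9.41 and 9.55 in PMdr65 brains and 9.28, 9.23 and 9.25 in UAS_control brains. It was 3.35, 3.79, 3.92, 4.00 and 3.78 in WT_old brains and 3.59, 3.42 and 3.21 in WT_new brains. All 8 Canton S arrays were near the floor of the arrays and all 9 arrays of the other lines were bright, with nothing between. The measured difference of UAS_control was 5.49 against WT_old (adjusted p = 1.75e-13) and 5.84 against WT_new (adjusted p = 4.4e-13). No detection call was used here, so whether the Canton S signal was above background was not tested and no fold is given. Both mutants were above UAS_control by 0.28 to 0.30, which did not pass (adjusted p = 0.109 in PMdr65 and 0.0767 in C17).

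Cyp6a17 is the second of 9 P450 genes that follow each other on arm 2R without another protein-coding RefSeq gene between them. In order they are Cyp6a22, Cyp6a17, Cyp6a23, Cyp6a19, Cyp6a9, Cyp6a20, Cyp6a21, Cyp6a8 and Cyp317a1. The run did not move as a block. Cyp6a23, a close paralogue of Cyp6a17, had 5.47, 6.91 and 6.09 in UAS_control brains, against 3.81, 3.70, 4.08, 3.83 and 3.75 in WT_old and 4.12, 4.24 and 4.85 in WT_new. UAS_control was higher by 2.32 than WT_old and by 1.76 than WT_new (adjusted p = 3.02e-06 and 0.00051), and C17 was higher than both wild types as well (1.73 and 1.17, adjusted p = 0.000129 and 0.0034). PMdr65 was higher than WT_old by 1.14 (adjusted p = 0.00276) and not detectably higher than WT_new (0.57, adjusted p = 0.106). Cross-hybridisation between the probes of these paralogues was not tested. Cyp6a9 averaged 5.19 ± 0.15 in C17, 5.46 ± 0.11 in PMdr65, 5.21 ± 0.21 in UAS_control, 4.24 ± 0.13 in WT_old (SD, n = 5) and 4.03 ± 0.34 in WT_new (n = 3 elsewhere). Both mutants and UAS_control passed against each wild type, by 0.95 to 1.43, and neither mutant passed against UAS_control.

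The genes at the other end of the run had another pattern. Cyp6a20, which has been tied to the level of aggression between males, had 7.02, 7.32 and 7.41 in C17 brains and 7.63, 7.18 and 7.37 in PMdr65 brains. It had 9.36, 9.47 and 9.27 in UAS_control brains, 7.55, 7.49, 7.58, 7.65 and 7.76 in WT_old brains, and 8.23, 8.63 and 8.78 in WT_new brains. UAS_control was highest, WT_new next, and the mutants and WT_old lowest. C17 was lower than UAS_control by 2.11 and than WT_new by 1.30 (adjusted p = 5.83e-08 and 6.48e-06), and the contrast with WT_old did not pass (-0.36, adjusted p = 0.0596). PMdr65 was lower by 1.97 and 1.16 against the same groups (adjusted p = 2.61e-07 and 1.63e-05), again without passing against WT_old (-0.21, adjusted p = 0.224). Cyp6a21 had 4.16, 5.79 and 4.29 in UAS_control brains, against 2.30 to 2.78 in WT_old brains and 2.62 to 3.58 in WT_new brains, and was higher by 2.19 and 1.66 (adjusted p = 3.02e-05 and 0.00376). Without UAS_control array 2 these differences were 1.67 and 1.14 (adjusted p = 2.96e-05 and 0.0049). Cyp6a8, a gene induced by drugs such as phenobarbital and caffeine, had 4.16, 7.33 and 5.41 in UAS_control brains, against 3.43 to 4.40 in WT_old brains and 4.41 to 5.43 in WT_new brains. UAS_control exceeded WT_old by 1.61 (adjusted p = 0.0105), by 2.34 without UAS_control array 1, and by 0.76 without UAS_control array 2, which ended the call (adjusted p = 0.066). UAS_control array 2 was the highest array for both genes.

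**Figure D3:**
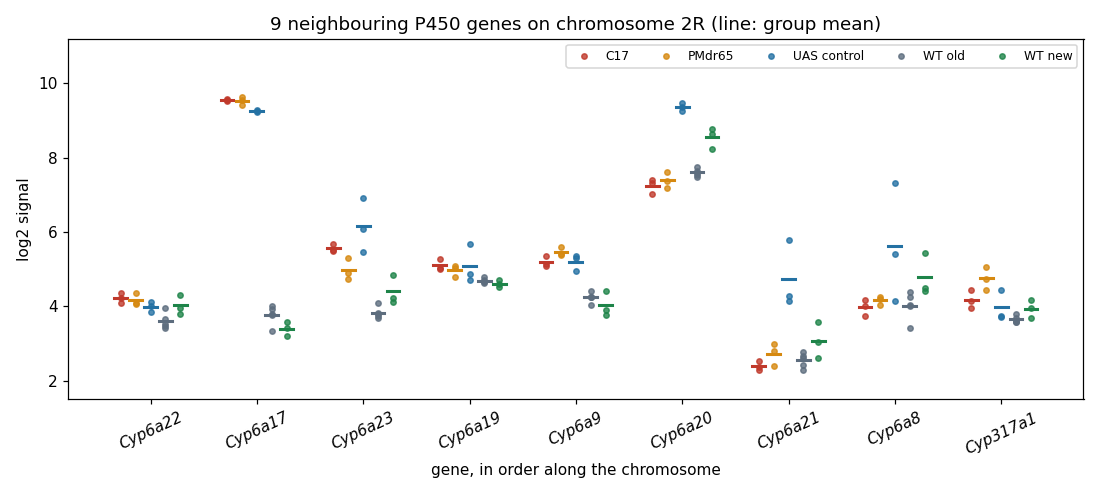
Log2 signal of 9 neighbouring P450 genes of chromosome arm 2R in their order along the chromosome, by group. Points are arrays and lines are group means. Cyp6a17 lies at 9.23 or above in C17, PMdr65 and UAS_control and at 4.00 or below in WT_old and WT_new, while Cyp6a20 is highest in UAS_control. Heights of different genes are not comparable.

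Cyp4s3, Cyp28d2 and Cyp6w1 were lower in UAS_control than in both wild types. Cyp4s3 had 11.05, 11.36 and 10.20 in C17 brains, 9.54, 9.71 and 9.27 in PMdr65 brains and 10.05, 9.51 and 9.78 in UAS_control brains. It had 11.44, 11.45, 11.42, 11.43 and 11.51 in WT_old brains and 11.63, 11.74 and 11.57 in WT_new brains. PMdr65 and UAS_control arrays overlapped and lay below all wild type arrays, while C17 lay between, with array 3 near UAS_control and the other two near the wild types. UAS_control was lower by 1.67 and 1.87 against WT_old and WT_new (adjusted p = 6.54e-06 and 3.18e-05), and PMdr65 did not pass against UAS_control (-0.27, adjusted p = 0.335).

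Cyp28d2 had 7.16, 7.21 and 7.01 in C17 brains, 5.90, 6.14 and 5.75 in PMdr65 brains and 6.04, 6.59 and 6.26 in UAS_control brains. It had 8.21, 7.64, 7.28, 7.70 and 7.15 in WT_old brains and 7.53, 7.12 and 6.84 in WT_new brains. C17 did not pass against WT_old or WT_new (-0.47 and -0.04, adjusted p = 0.137 and 0.913) and was higher than UAS_control by 0.83 (adjusted p = 0.0105). PMdr65 was lower than WT_old by 1.67 and than WT_new by 1.24 (adjusted p = 3.34e-05 and 0.000717). UAS_control was lower than WT_old by 1.30 (adjusted p = 0.000128), and lower than WT_new by 0.87 (adjusted p = 0.0222), a call that did not hold without UAS_control array 1 or 3 or WT_new array 1 (0.68 to 0.85 in size, adjusted p 0.0578 to 0.107). Cyp6w1 averaged 8.88 ± 0.02 in C17, 9.04 ± 0.08 in PMdr65, 8.87 ± 0.42 in UAS_control, 9.50 ± 0.13 in WT_old and 9.81 ± 0.20 in WT_new. The 3 lines passed as lower against each wild type, with adjusted p between 0.000302 and 0.0234.

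Cyp9f2 followed yet another order. It had 11.30, 11.37 and 11.36 in C17 brains, 10.88, 10.80 and 10.86 in PMdr65 brains, and 11.19, 11.08 and 11.03 in UAS_control brains. It had 10.16, 10.57, 10.56, 10.63 and 10.51 in WT_old brains and 10.82, 10.93 and 10.71 in WT_new brains. Every C17 array lay above every other array. C17 passed against WT_old (0.85, adjusted p = 7.98e-06) and WT_new (0.52, 0.000819), and not against UAS_control (0.24, 0.0628).

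**Figure D4:**
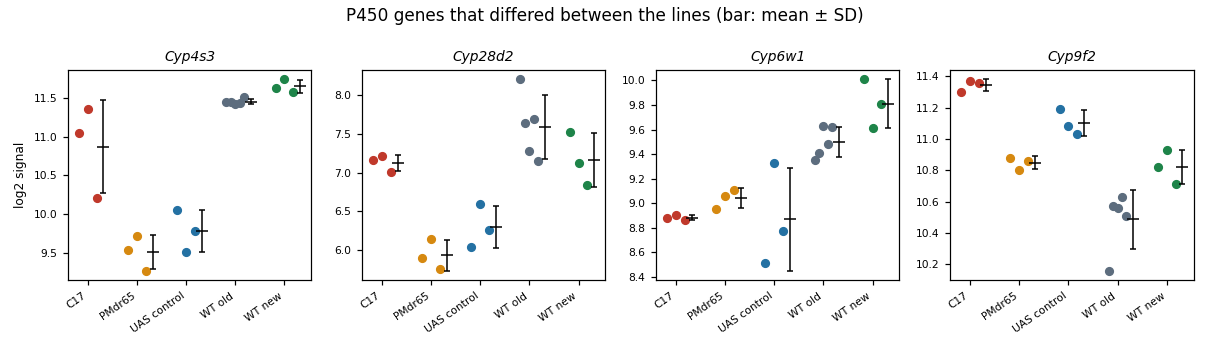
Log2 signal of Cyp4s3, Cyp28d2, Cyp6w1 and Cyp9f2 by group. Points are arrays and bars are the mean ± SD, and vertical axes differ between panels and do not start at 0. PMdr65 lies near UAS_control for Cyp4s3 and Cyp28d2, while C17 lies nearer the wild types for these genes and above every other array for Cyp9f2.

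Counted over all members, 29 of 58 were higher in UAS_control than in WT_old (background 27.3%) and 9 were lower (15.5%, background 27.3%). The members' median difference was 0.37, where the median over all genes was -0.01. In the CYP6 family 13 of 18 were higher and 1 was lower, and in the CYP4 family 5 of 14 were higher and 3 were lower. Against WT_new, 12 members were higher in UAS_control (20.7%, background 8.41%) and 6 were lower (10.3%, background 6.4%). Between the wild types, 7 members were higher in WT_old than in WT_new (12.1%, background 24.1%) and 19 were lower (32.8%, background 21.0%), with a median of -0.20 against 0.01 over all genes. Without WT_new array 3, 4 members rather than 7 were higher in WT_old. Without that array and UAS_control array 2, the counts were 25 and 10 for UAS_control against WT_old, 12 and 6 for UAS_control against WT_new, and 6 and 18 for WT_old against WT_new.

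Several of the members behind these counts were bright on the arrays with high signals of eye, muscle and fat body genes. Cyp4e2 had 5.85, 5.69 and 5.67 in C17 brains and 5.55, 5.66 and 5.74 in PMdr65 brains. It had 7.67, 9.34 and 8.03 in UAS_control brains, 4.75, 4.59, 5.27, 4.71 and 4.55 in WT_old brains, and 5.73, 5.94 and 7.32 in WT_new brains. UAS_control lay above all other groups and WT_old below them. UAS_control exceeded WT_old by 3.57 (11.9-fold, adjusted p = 1.57e-06) and WT_new by 2.01 (adjusted p = 0.00291), and WT_old was lower than WT_new by 1.56 (adjusted p = 0.00236). Without UAS_control array 2, UAS_control exceeded WT_old by 3.08 and WT_new by 1.52 (adjusted p = 5.09e-06 and 0.0102). Without WT_new array 3, UAS_control exceeded WT_new by 2.51, and WT_old was lower than WT_new by 1.06 (adjusted p = 0.000225 and 0.0161). Cyp6g1, whose overexpression makes flies resistant to DDT and imidacloprid, had 5.43 to 6.38 in C17 brains and 5.67 to 6.05 in PMdr65 brains. It had 7.09, 10.28 and 8.01 in UAS_control brains, against 4.75, 5.52, 5.43, 6.06 and 5.17 in WT_old brains and 6.38, 6.96 and 9.15 in WT_new brains. UAS_control exceeded WT_old by 3.07 (adjusted p = 0.000877), by 2.16 without UAS_control array 2 (adjusted p = 0.00543) and by 3.76 without UAS_control array 1 (adjusted p = 0.000339). In the same gene, WT_old was lower than WT_new by 2.11 (adjusted p = 0.0139), which did not hold without WT_new array 3 (1.29 in size, adjusted p = 0.105).

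Cyp6d5 had 8.61, 10.07 and 9.26 in UAS_control brains, against 7.01 to 7.48 in WT_old brains and 7.54, 8.07 and 9.40 in WT_new brains. WT_old was lower than WT_new by 1.14 (adjusted p = 0.0149), which again did not hold without WT_new array 3 (0.61 in size, adjusted p = 0.112). Cyp9b2 had 5.80, 6.53 and 5.85 in UAS_control brains, against 4.97 to 5.30 in WT_old brains and 5.52, 5.83 and 7.32 in WT_new brains. In this gene WT_old was lower than WT_new by 1.06, and by 0.51 without WT_new array 3 (limma, adjusted p = 0.0452). UAS_control exceeded WT_old by 0.89, and by 0.66 without UAS_control array 2, which ended the call (limma, adjusted p = 0.112). On UAS_control array 2, 7 members were more than 1 above the next array of the group (Cyp313a1, Cyp4e2, Cyp4p1, Cyp6a21, Cyp6a8, Cyp6g1 and Cyp6g2), and on WT_new array 3 there were 4 (Cyp4e2, Cyp6d5, Cyp6g1 and Cyp9b2). UAS_control array 1 (Cyp4g1) and WT_old array 2 (Cyp6g2) had 1 each. The share over all genes is not given here, so nothing particular to P450 genes is read from these counts. Of the tissue markers, UAS_control exceeded WT_old in 6 of 7 eye, 9 of 11 muscle and 6 of 7 fat body markers (background 27.3%). The remaining eye marker, rdgA, was lower (background 27.3%). Against WT_new, 0 of 7 eye, 1 of 11 muscle and 0 of 7 fat body markers were higher in UAS_control (background 8.41%). The photoreceptor gene Arr2 had 11.53, 12.15 and 11.97 in UAS_control, against 7.06 to 7.94 in WT_old and 8.23, 9.09 and 12.36 in WT_new. The yolk protein gene Yp1, of fat body and ovary, had 11.68, 12.96 and 12.72 in UAS_control, against 7.47 to 9.43 in WT_old and 12.30, 11.80 and 12.85 in WT_new. The part of these tissues in the P450 differences was not tested. In C17, against all 3 control groups, 0 of 7 fat body, 0 of 11 muscle and 0 of 7 eye markers passed (background 4.37% higher and 2.27% lower). In PMdr65 the fat body marker Lsp2 was higher by 2.27 to 4.23 and the muscle marker Act79B was lower by 1.54 to 3.64. The other fat body, muscle and eye markers did not pass in PMdr65 (background 5.87% higher and 3.18% lower). None of 2 oenocyte and 4 haemocyte markers passed in either mutant.

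**Figure D5:**
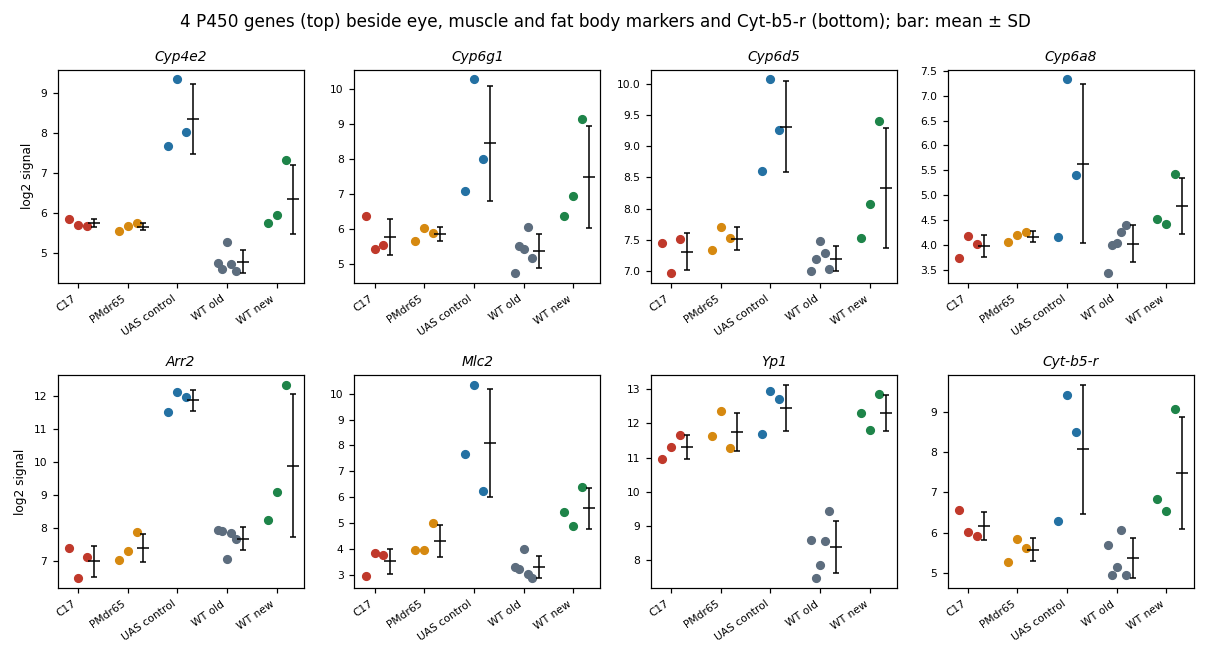
Log2 signal of Cyp4e2, Cyp6g1, Cyp6d5 and Cyp6a8 in the upper row, and of Arr2 (eye), Mlc2 (muscle), Yp1 (fat body and ovary) and Cyt-b5-r in the lower row, by group. Points are arrays and bars are the mean ± SD, and vertical axes differ between panels and do not start at 0. All 4 P450 genes are highest on UAS_control array 2, where Cyp6g1 is 10.28, and WT_new array 3 is the highest of its group in each upper panel.

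The members that separated the wild types in the other direction were not on that pattern. Cyp4p2 was higher in WT_old than in WT_new by 0.76, Cyp310a1 by 0.64, Cyp49a1 by 0.56 and Cyp4ac2 by 0.56 (adjusted p of 0.00014, 0.0001, 4.45e-05 and 5.37e-05). Cyp310a1 averaged 7.51 ± 0.05 in UAS_control, 8.53 ± 0.11 in WT_old and 7.88 ± 0.12 in WT_new, and it was lower in UAS_control than in WT_old by 1.01 (adjusted p = 1.05e-06). Cyp303a1, which is needed for the development of sensory bristles, was lower in UAS_control than in WT_old by 0.78 (adjusted p = 0.0029). Cyp305a1, unlike these, was lower in WT_old than in WT_new by 0.89, and higher in UAS_control than in WT_old by 1.06. It had 6.94, 7.18 and 7.09 in C17 brains and 6.78, 6.84 and 6.79 in PMdr65 brains, against 7.95, 8.01 and 7.52 in UAS_control brains, 6.59 to 6.95 in WT_old brains and 7.45, 7.80 and 7.73 in WT_new brains. It passed as lower in each mutant against UAS_control and WT_new (0.59 to 1.02 in size) and not against WT_old.

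Cyp4g15, Cyp4g1 and Cyp18a1 did not pass against all 3 control groups in either mutant. Cyp4g15, which is expressed in the nervous system of the fly, had 10.44, 10.39 and 10.37 in C17 brains, 10.15, 10.14 and 10.20 in PMdr65 brains, 10.90, 10.62 and 10.60 in UAS_control brains, 9.94 to 10.22 in WT_old brains and 10.61, 10.73 and 10.53 in WT_new brains. C17 was higher than WT_old by 0.32 and lower than UAS_control by 0.31, so its direction turned with the control group. PMdr65 was lower than UAS_control by 0.54 and than WT_new by 0.46 and did not pass against WT_old (0.08, adjusted p = 0.516). Cyp4g1, which makes cuticle hydrocarbons in oenocytes, was dim, with 7.25, 5.30 and 6.03 in UAS_control brains against 4.34 to 5.32 on the arrays of the other 4 groups. Cyp18a1, which inactivates ecdysteroids, had 4.30 to 5.76 over all arrays on its brightest probe set and passed there in none of the 10 contrasts. Its second probe set averaged 4.56 in C17, 4.51 in PMdr65, 4.77 in UAS_control, 3.77 in WT_old and 4.58 in WT_new. WT_old thus stood apart on the second set and not on the brightest, where it averaged 4.60 and C17 4.68. Calls of the second set are not given here.

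By family, none of the 14 CYP4 genes passed against all 3 control groups in a mutant, against the backgrounds given above (for higher calls, 4.37% in C17 and 5.87% in PMdr65; for lower calls, 2.27% and 3.18%). Nothing particular to a family is read from these small counts. Of the 18 CYP6 genes, 1 was higher and none was lower in C17, and 2 were higher and 1 was lower in PMdr65. The CYP28 family had 1 lower member of 4 in PMdr65, and the CYP313 family had 2 higher members of 4. The CYP2 clan (Cyp18a1, Cyp303a1 and Cyp305a1) had none in either mutant. Besides Cyp18a1, 6 members passed in none of the 10 contrasts: Cyp316a1, Cyp4ac1, Cyp4d14, Cyp4p1, Cyp6d2 and Cyp6g2. The other 51 members (87.9%, background 80.2%) passed in at least 1 contrast. Of 19 pairs of members that are neighbours on a chromosome, 28 members in all, the Cyp12a4 and Cyp12a5 pair was the one with opposite calls in each mutant, and Cyp313a2 and Cyp313a5 in PMdr65 were the one with the same call. In C17 no gene of the other 18 pairs passed, and in PMdr65 1 gene of a pair passed in 2 pairs and none in 15.

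Partners and regulators of P450s were counted by the same rule, with the same backgrounds. In lists of 4 to 8 genes a single call already exceeds these shares, so nothing is read from the counts. Of 4 measured genes listed as electron donors, 0 passed in either mutant. The list held Fdx1, Fdx2, Cyt-b5 and Cyt-b5-r, with Cpr and dare not analysed here. Whether Cyt-b5-r, a gene named for its relation to cytochrome b5, donates electrons to P450s was not tested. Cyt-b5-r had 6.28, 9.41 and 8.50 in UAS_control brains, against 4.94 to 6.06 in WT_old brains and 6.84, 6.53 and 9.07 in WT_new brains. Its highest array in UAS_control and in WT_new was the same as for Cyp6g1 and for the eye, muscle and fat body sums. Of 5 measured regulators of the response to foreign chemicals, Keap1, the inhibitor of the transcription factor cnc, passed as higher in both mutants. It had 8.28, 8.32 and 8.46 in C17 brains and 8.26, 8.28 and 8.38 in PMdr65 brains. Control values were 7.94, 7.76 and 7.90 in UAS_control, 8.23, 8.03, 8.03, 7.81 and 8.10 in WT_old, and 8.02, 8.11 and 7.95 in WT_new.

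Keap1 was higher by 0.31 to 0.49 in C17 (highest adjusted p = 0.0142, not held without C17 array 3, at 0.26 and 0.089) and by 0.27 to 0.44 in PMdr65 (highest adjusted p = 0.0244). The PMdr65 call did not hold without PMdr65 array 2 or 3 or WT_new array 1 or 3 (0.23 to 0.28, adjusted p 0.0572 to 0.101). The cnc partner maf-S had 9.95, 9.90 and 10.12 in PMdr65 brains, against 10.27 to 10.68 on the control arrays, and was lower by 0.42 to 0.54 (highest adjusted p = 0.00352). Of 8 measured genes of ecdysone synthesis and response, 1 passed: spok, a P450 gene of ecdysone synthesis with a name outside the rule, had 4.28, 4.53 and 4.41 in C17 brains, against 2.73 to 4.11 on the control arrays. It was higher in C17 by 0.64 to 1.52 (highest adjusted p = 0.00864), at a dim signal, and this did not hold without C17 array 2 (0.58, adjusted p = 0.0505).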

How the data were processed

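RNA of 4 pooled brains per array was purified on Ambion RNAqueous columns, amplified with a NuGEN Ovation FFPE kit and labelled with biotin, per the labels' protocols. The authors deposited log2 signals that RMA computed from the 17 arrays together, per the file headers. The submitters' processing notes name affy, RMA and limma without versions. The series matrix (13290 probe sets) was used as deposited. Its values matched the deposited unfiltered table (18769 probe sets that are not controls) within 0.005, and how it was filtered is not given in the sources used here. Array medians lay between 7.856 and 7.991, and 3 to 5 arrays per group limit the precision.

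Platform annotation gave 10243 probe sets 1 symbol, 310 several and 2737 none. Genes with several probe sets (Cyp12e1 and Cyp18a1, with 2 each, among members) were read on the brightest. All 58 members matched RefSeq symbols, which gave chromosome arms and the order of protein-coding genes, and no coordinates. A limma 3.58.1 model of group means (R 4.3.3, 17 arrays, 12 residual plus 2.93 prior degrees of freedom) gave 10 contrasts, each with Benjamini-Hochberg adjustment over all probe sets and a threshold of 0.05. It was tested on simulated data. Exact permutation tests used SciPy 1.17.1.

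Named genes were members that passed against all 3 control groups in a mutant, members past the threshold in C17 against PMdr65, the 4 largest called changes in each direction between control groups, and members with known roles. Cyp6a20, Cyp6a9, Cyp305a1 and the rest of the 2R run were added after their values were seen. Members, markers and pathway lists were chosen with earlier results of these data known.

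Replicate numbers did not pair the arrays: deviations of arrays with the same number correlated between -0.474 and 0.405, above 0.1 in 4 of 30 pairs. Alternatives were the unfiltered table, quantile normalization, median centring, another variance prior, array weights, fits of only the compared groups, a replicate block, omission of the dimmest 40% of probe sets, a 2-fold limit, the dimmest probe set of a gene, and omission of each array in turn. Omission of WT_new array 3 and UAS_control array 2 together was added after seeing the data.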

Additional observations from a re-analysis of the deposited data

Results flagged for a closer look

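Within the 5 WT_old arrays, 1 array lay far from the other 4 for 4 of 58 members, by Dixon's ratio with a critical value of 0.71; chance gives about 1 in 20 groups. Cyp4ac3 was 9.58 on WT_old array 5, against 9.35 to 9.41 on the other arrays. Cyp4e2 was 5.27 on WT_old array 3, against 4.55 to 4.75. Cyp6g2 was 5.84 on WT_old array 2, against 4.33 to 4.72. Cyp9f2 was 10.16 on WT_old array 1, against 10.51 to 10.63.

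C17 and PMdr65 differed in 10 members by their direct contrast, which equals the difference of their changes against the shared control arrays. Each mutation was represented by 1 line, so mutation and line background cannot be told apart. C17 minus PMdr65 was 1.37 for Cyp4s3, 1.20 for Cyp28d2, 0.88 for Cyp6a2, 0.61 for Cyp12a5, 0.50 for Cyp9f2 and 0.48 for Cyp28d1. It was -2.09 for Cyp12a4, -1.45 for Cyp9h1, -1.08 for Cyp6d4 and -0.91 for Cyp313a5. For Cyp12a4 the PMdr65 brains were nearer the controls, and for Cyp9h1 and Cyp6d4 the C17 brains were.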

How the results depend on the processing

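Over 28 alternative settings, 55 single-gene results gave 1510 values, of which 1395 kept direction and side of the threshold, 115 kept direction and lost the call, and 0 reversed; 21 results kept their call in every setting in which the gene was tested (27 or 28), among them Cyp6a13 in both mutants, Cyp12a4 and Cyp12a5 in C17 and Cyp9h1 in PMdr65. For the processing settings that follow, only counts of P450 genes that moved by more than 1.5 times are listed, so a count left out is not 0. With a 2-fold limit the counts that moved against all 3 control groups were 1 lower in C17, and 2 higher with 0 lower in PMdr65. Cyp12a5 and Cyp6a13 still passed as higher in C17 under this limit. Other counts that moved were 2 higher in C17 than in PMdr65, 11 higher and 3 lower in UAS_control than in WT_old, 7 and 1 in UAS_control than in WT_new, and 0 and 4 in WT_old than in WT_new. Without the dimmest 40% of probe sets, where 34 members lie and were not tested, the counts that moved were 1 higher in PMdr65, 1 lower in C17 than in PMdr65, 11 and 5 in UAS_control than in WT_old, 4 higher in UAS_control than in WT_new, and 3 and 12 in WT_old than in WT_new. With only the groups compared in the fit, 5 genes were higher in C17, and 5 were higher and 2 lower in UAS_control than in WT_new. Array weights gave 10 higher and 7 lower genes in C17 than in PMdr65. In the unfiltered table, 1 gene was lower in C17. With the replicate number as a block, 1 gene was lower in C17 (Cyp9c1 lost) and 3 in PMdr65 (Cyp301a1 and Cyp6a2 lost); the other 10 counts stayed within 1.5 times. The cause of these shifts was not tested, apart from fewer genes or arrays entering. Leaving out each array in turn gave 3 to 5 higher and 1 to 2 lower genes in C17, 5 to 7 and 2 to 5 in PMdr65, 5 to 6 and 4 to 5 in C17 than in PMdr65, 23 to 31 and 8 to 10 in UAS_control than in WT_old, 11 to 18 and 4 to 7 in UAS_control than in WT_new, and 4 to 8 and 14 to 25 in WT_old than in WT_new. With few arrays per group and 23 members of mean signal below 6, small changes of dim genes could have been missed, and folds near the floor are approximate.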
